A study of Mus musculus with 24 samples.

Results

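The SR proteins, the heterogeneous nuclear ribonucleoproteins (hnRNPs), the polypyrimidine tract binding (PTB) proteins and their relatives Tra2a, Tra2b, Rbmx and Rbmxl2 were followed through early male meiosis in the mouse. Members were chosen by symbol alone: every Srsf, Hnrnp, Ptbp and Tra2 gene of the tables, plus Rbmx and Rbmxl2. This gave 38 genes of the 52231 rows that are not spike-ins, 11 of them SR proteins, 20 hnRNPs, 3 PTB proteins and 4 Tra2 and RBMX genes. All 38 had at least 1 FPKM (a read count scaled to transcript length and library size) in at least 2 libraries of both assays, so none was lost to the filter on low values.

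The cells were spermatogonia, preleptotene, leptotene and pachytene spermatocytes from the testes of wild-type NMRI mice. Every animal had been synchronised with WIN18,446 and retinoic acid, had received 2 mg of 5-ethynyl uridine (EU) at 24 days of age and was killed 3 hours later, and its cells were sorted by ploidy. Total RNA and EU-labelled (nascent) RNA were each sequenced in 12 libraries. Spermatogonia gave 3 libraries per assay (2 animals), preleptotene 1, leptotene 4 (3 animals) and pachytene 4 (2 animals), with other animals in the nascent assay than in the total one. The animal was the replicate: its libraries within a stage were averaged before any comparison. Preleptotene, with 1 library, is given by value without a test, and the labels' account of the sort does not name that stage. Differences are in log2(FPKM + 1) with the standard error after the ± sign, and limma gave two-sided p-values, adjusted over every row tested.

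Leptotene library 2 stood apart from its stage in both assays. Across all genes its Spearman correlation in total RNA was 0.87 to 0.90 with the pachytene libraries and 0.53 to 0.57 with the other leptotene libraries, and in nascent RNA these were 0.75 to 0.86 and 0.59 to 0.63. Its summed FPKM of 12 pachytene markers was 2446 in total RNA, against 108 to 140 in the other leptotene and 2886 to 3492 in the pachytene libraries. Called results that rest on leptotene are therefore given with and without it. The spermatogonia libraries carried RNA of somatic cells: 15 Sertoli markers summed to 154 to 220 FPKM there, 11.2 to 40.3 in leptotene and 2.94 to 6.96 in pachytene, where Rhox5, Fshr and Trf were at 0. The sums of 9 Leydig markers were 185 to 472, 2.76 to 22.3 and 4.71 to 7.97 FPKM, and Lhcgr and Hsd17b3 were at 0 in pachytene. Peritubular and vascular markers (10 genes) went from 231 to 495 in spermatogonia to 1.38 to 2.82 FPKM in pachytene, and blood and macrophage markers from 45.3 to 55.9 to 2.68 to 3.61. Spermatid markers (11 genes) summed to 6.52 to 15.4 FPKM in spermatogonia, 93.8 in leptotene library 2 and 110 to 136 in pachytene. The part of these cells in the differences from spermatogonia was not tested. In such bulk samples fewer cells of a type and less RNA per cell cannot be told apart.

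SR proteins bind exonic enhancers through RNA recognition motifs and recruit the splicing machinery through arginine and serine rich domains, whereas many hnRNPs and the PTB proteins bind silencers and oppose exon inclusion. Many of these genes adjust their own output through unproductive splicing, so their RNA level and their protein need not move together. The testis is known for its wealth of alternative transcripts. Some of the families keep a copy most active in germ cells, such as Rbmxl2 beside Rbmx, or in neurons and spermatocytes, such as Ptbp2 beside Ptbp1. Rbmx lies on the X chromosome, which is silenced in pachytene spermatocytes, and Rbmxl2 is its intronless autosomal copy.

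The upstream sequences of these gene pairs are shown because the ratio of their total RNA changed between some stages. Ptbp2 over Ptbp1 was 1.22 to 2.98 in spermatogonia, 0.310 to 0.928 in leptotene and 0.875 to 15.9 in pachytene, so pachytene overlapped spermatogonia. In nascent RNA all ranges overlapped, at 0.413 to 1.38, 0.909 to 2.27 and 1.02 to 2.96. Each is the 250 bases before the RefSeq start on GRCm38.p6, read in the direction of transcription, with every CG dinucleotide in capitals. The windows are chrX:57393037-57393286 on the minus strand for Rbmx, chr7:107209195-107209444 on the plus strand for Rbmxl2, chr10:79854182-79854431 on the plus strand for Ptbp1 and chr3:119783389-119783638 on the minus strand for Ptbp2.
Rbmx: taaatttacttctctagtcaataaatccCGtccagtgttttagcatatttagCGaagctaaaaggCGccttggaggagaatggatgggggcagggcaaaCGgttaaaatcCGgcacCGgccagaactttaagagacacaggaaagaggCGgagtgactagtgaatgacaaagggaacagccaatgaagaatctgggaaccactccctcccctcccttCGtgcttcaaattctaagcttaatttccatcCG
Rbmxl2: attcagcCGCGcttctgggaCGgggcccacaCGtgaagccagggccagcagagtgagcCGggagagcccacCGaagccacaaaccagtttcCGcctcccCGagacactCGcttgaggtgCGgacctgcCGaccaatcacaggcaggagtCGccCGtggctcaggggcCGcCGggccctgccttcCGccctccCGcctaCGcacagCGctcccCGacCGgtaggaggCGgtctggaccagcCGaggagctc
Ptbp1: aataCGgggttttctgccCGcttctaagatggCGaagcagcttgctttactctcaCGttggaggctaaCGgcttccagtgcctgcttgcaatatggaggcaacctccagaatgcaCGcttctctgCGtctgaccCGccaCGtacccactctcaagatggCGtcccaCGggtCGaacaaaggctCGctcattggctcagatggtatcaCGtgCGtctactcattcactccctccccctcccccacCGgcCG
Ptbp2: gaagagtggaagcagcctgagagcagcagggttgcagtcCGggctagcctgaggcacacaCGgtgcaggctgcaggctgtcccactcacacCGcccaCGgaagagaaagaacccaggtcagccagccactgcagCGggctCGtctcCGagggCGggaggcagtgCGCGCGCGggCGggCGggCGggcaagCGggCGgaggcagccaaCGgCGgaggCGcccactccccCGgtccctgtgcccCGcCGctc

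Rbmx had 9 CG dinucleotides in this window and its autosomal copy Rbmxl2 had 23. Ptbp1 had 17 and Ptbp2 had 23. RefSeq gave a window for 35 of the 38 genes (47 windows), with a median of 23 CG dinucleotides and a range of 6 to 46, against a median of 6 over all 32851 mouse windows of the same length. Of the 4 motifs searched on both strands, CCAAT stood in 24 of the 47 member windows (51.1%) and in 33.9% of all windows. CACGTG stood in 5 (10.6% against 6.02%), TGACGTCA in 1 (2.13% against 1.55%) and TATAAA in 3 (6.38% against 12.4%). Some genes, such as Hnrnph1 and Srsf4, have several windows that overlap in part, so 1 match can count more than once. A match is a run of letters and shows no binding.

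Total RNA of the family moved most between spermatogonia and pachytene. In that comparison 11 members rose and 4 fell, 39.5% of the 38, while 52.8% of all 19202 rows were called. In the plot of changes in pachytene against spermatogonia the SR proteins that changed lie to the right of 0 and those that fell are hnRNPs, Ptbp3 and Rbmx. Between leptotene and pachytene 4 members rose and 3 fell (18.4%, against 40.2% of all rows), and between spermatogonia and leptotene 1 rose (2.63%, against 9.81%). By direction, the rows called higher and lower were 23.1% and 29.7% in pachytene against spermatogonia, 22.4% and 17.7% in pachytene against leptotene, and 0.286% and 9.52% in leptotene against spermatogonia. Over both directions the members' shares lay below those of all rows in the 3 comparisons, while the 11 and the 1 of 38 that rose in the first and last stood against 23.1% and 0.286%.

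These counts, like those over all rows, depended on single libraries and animals. Without leptotene library 2 they were 19 (50%, against 57.3%), 14 (36.8%, against 53.5%) and 0 (against 12.2%). In the last limma gave 7 members an unadjusted p under 0.05, a count without a share of all rows beside it. With any 1 animal of these stages left out, fewer members and fewer of all rows were called in pachytene against spermatogonia. Those fits leave 1 animal in a stage, so their counts are not given. In the other comparisons the calls moved as well. Some animals gave 2 of the stages, so the fits were repeated with the animal as a replicate block. In each assay only 1 animal gave both leptotene and pachytene, and none gave both spermatogonia and pachytene. Block differences that involve pachytene therefore take their step from leptotene from that 1 animal and are a weak check. Of the 15 genes called in pachytene against spermatogonia, Hnrnph2, Rbmx and Hnrnpm passed with the block and Hnrnpa1 was added, while 31.7% of all rows were called. The adjusted p of the other 12 with the block ran from 0.0577 (Tra2a) to 0.823 (Srsf9). Of the 7 in pachytene against leptotene, Hnrnph2, Hnrnpdl and Srsf12 passed with the block, Hnrnpa1, Ptbp1 and Rbmx were added (22.9% of rows), and the others had adjusted p of 0.139 to 0.377. In leptotene against spermatogonia Ptbp1 passed and Rbmx was added (11.2% of rows). The median log2 difference of the 38 was 0.30 in pachytene against spermatogonia, beside -0.14 over all rows. The comparisons share samples and are not independent of each other.

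**Figure D1:**
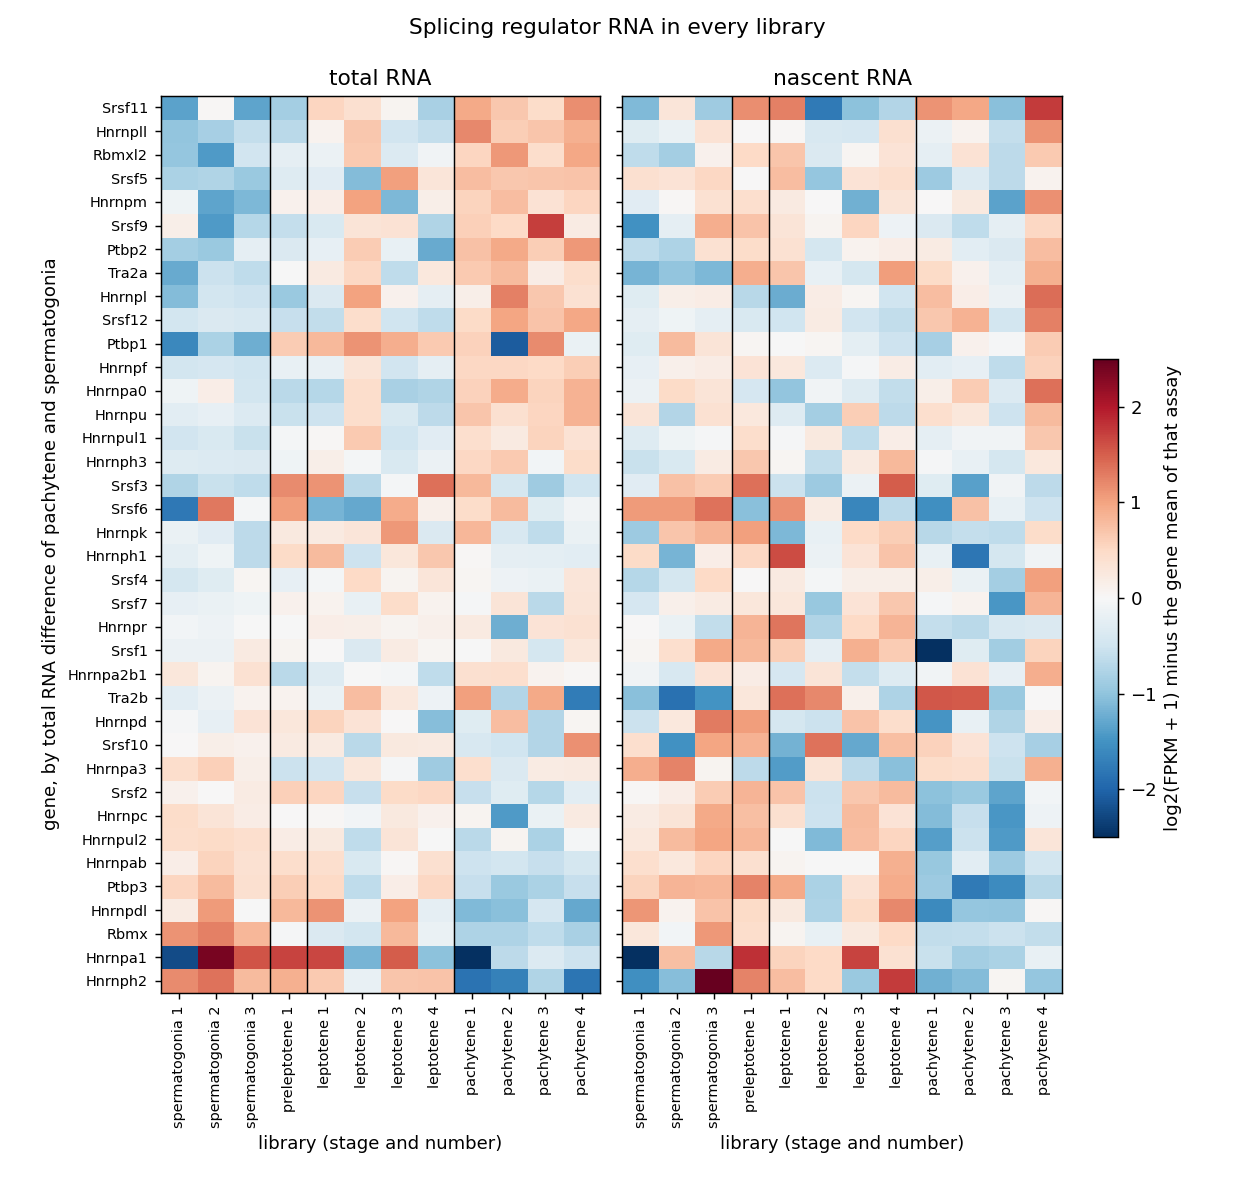
Level of each of the 38 genes in every library of total RNA (left) and nascent RNA (right), as log2(FPKM + 1) minus the gene's mean in that assay, with colours ending at 2.5 above and below it; black lines part the stages. Rows run from Srsf11, which rose most in pachytene against spermatogonia total RNA (1.80), to Hnrnph2, which fell most (-2.56), and total RNA leptotene library 2 shows low Hnrnph2 and high Hnrnpa0 like the pachytene libraries.

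Rbmx fell and Rbmxl2 rose. Rbmx (ENSMUSG00000031134.16, mm10 chromosome X, 57383530 to 57393036, 8 exons) codes for a nuclear RNA-binding protein that binds chromatin-associated transcripts and affects splice site choice. Its total RNA was 2.91, 3.30 and 2.21 FPKM in spermatogonia, 0.770 in preleptotene, 0.410, 0.315, 2.19 and 0.613 in leptotene, and 0.0597, 0.0557, 0.158 and 0.0313 in pachytene. No pachytene library reached any other library, and leptotene library 3 was alone among leptotene libraries at the spermatogonial level. In the pachytene libraries 3 reads over this transcript give 0.0611 to 0.0815 FPKM, a level that library 3 exceeded and the other pachytene libraries did not reach. The fall from spermatogonia to pachytene was -1.76 ± 0.40 (adjusted p = 0.0061), and with the animal as a replicate block the call stayed (-2.91, adjusted p = 0.00353). From spermatogonia to leptotene the difference was -0.92 ± 0.36 (adjusted p = 0.180; -0.91 and 0.147 without leptotene library 2), which passed the threshold with the block (-1.29, adjusted p = 0.0322). Nascent Rbmx was 0.862, 0.462 and 2.26 FPKM in spermatogonia, 0.595, 0.344, 0.805 and 1.16 in leptotene, and 0, 0.00891, 0.0568 and 0 in pachytene, a fall of -1.19 ± 0.36 from spermatogonia (adjusted p = 0.0198), which was not called with the block (-1.23, adjusted p = 0.152). In both assays Rbmx passed the level filter only through stages before pachytene, where it was higher, so its tests are not independent of that filter.

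Rbmxl2 (ENSMUSG00000073894.1, mm10 chromosome 7, 107209445 to 107210916, 1 exon) makes the germ cell counterpart of the RBMX protein, which in spermatocytes is known to repress cryptic splice sites. In total RNA it was at 31.7, 23.1 and 45.0 FPKM in spermatogonia, 53.7 in preleptotene, 57.3, 99.6, 49.4 and 59.7 in leptotene and 91.7, 136, 85.5 and 124 in pachytene. All leptotene libraries lay above all spermatogonia libraries, and leptotene library 2 lay among the pachytene ones. The rise from spermatogonia to pachytene was 1.59 ± 0.41 (adjusted p = 0.0111), or 2.30 with the block (adjusted p = 0.0797). Nascent Rbmxl2 as deposited showed no such order: it was 18.6, 16.0 and 31.6 FPKM in spermatogonia, 42.0 in preleptotene, 47.9, 22.6, 30.3 and 37.6 in leptotene and 25.2, 38.2, 18.3 and 47.1 in pachytene. With spike-in rows taken out of the library sum, nascent Rbmxl2 was 15.2 to 26.0 in spermatogonia, 26.4 to 51.5 in leptotene and 27.4 to 48.8 in pachytene. So scaled, all leptotene and pachytene libraries lay above all spermatogonia libraries. Its nascent difference between pachytene and spermatogonia was 0.36 ± 0.51 (adjusted p = 0.612). The ratio of Rbmxl2 to Rbmx total RNA, both per length, ran from 6.98 to 20.4 in spermatogonia, was 69.7 in preleptotene, 22.6 to 316 in leptotene and 542 to 3965 in pachytene, where Rbmx was below the level of 3 reads except in library 3.

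Hnrnph2, which binds runs of guanine and lies at mm10 chromosome X, 134601179 to 134607060, is the other X-linked member. Total Hnrnph2 was 9.18, 10.5 and 6.73 FPKM in spermatogonia, 7.24 in preleptotene, 6.04, 2.92, 6.22 and 6.27 in leptotene, and 0.245, 0.379, 1.64 and 0.264 in pachytene. All pachytene libraries were below all others, and within leptotene only library 2 fell short of 6 FPKM. The fall from leptotene to pachytene was -2.07 ± 0.33 (adjusted p = 0.00329), -2.21 without leptotene library 2 (adjusted p = 0.000331), and that from spermatogonia was -2.56 ± 0.36 (adjusted p = 0.00116). It held with the block (-3.02, adjusted p = 0.00857). Its autosomal paralogue Hnrnph1 was 9.21, 10.2 and 6.64 FPKM in spermatogonia and 11.3, 9.35, 9.25 and 9.05 in pachytene, so the ratio of Hnrnph1 to Hnrnph2 went from between 0.967 and 1.0 in spermatogonia to between 5.63 and 46.1 in pachytene. The 16 X-linked housekeeping genes of a list were lower in the same libraries: their summed FPKM was 180 to 237 in spermatogonia, 132 to 150 in leptotene without library 2, 26.4 in that library and 0.797 to 15.7 in pachytene, with Rps4x at 0 there. Nascent Hnrnph2 was scattered, at 0.0176, 0.412 and 15.6 FPKM in spermatogonia and 0.290, 0.398, 2.07 and 0.515 in pachytene, and its difference was -1.39 ± 1.07 (adjusted p = 0.328).

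The 3 PTB genes took 3 different courses in total RNA. Ptbp1 (mm10 chromosome 10, 79854427 to 79864771), the form found in most tissues, represses exons next to pyrimidine-rich tracts. Its total RNA was 2.85, 5.79 and 4.09 FPKM in spermatogonia, 17.4 in preleptotene, 19.5, 24.5, 21.0 and 17.5 in leptotene and 16.5, 1.80, 25.6 and 9.49 in pachytene. Every leptotene library exceeded every spermatogonia library, whereas pachytene ranged from below the spermatogonia to above the leptotene libraries, also between the 2 libraries of 1 animal (1.80 and 9.49). The rise into leptotene, 2.04 ± 0.53 (adjusted p = 0.0429), was 1.99 without leptotene library 2 (adjusted p = 0.0515) and 2.01 with the replicate block (adjusted p = 0.0174). With the block Ptbp1 was also called lower in pachytene than in leptotene (-2.02, adjusted p = 0.0497), which rests on the 1 animal with both stages. Without the block that difference was -0.96 ± 0.53 (adjusted p = 0.175).

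Nascent Ptbp1 did not follow this course. It was 8.22, 18.7 and 13.2 FPKM in spermatogonia, 10.8 in preleptotene, 10.3, 10.9, 8.61 and 6.93 in leptotene and 5.42, 11.3, 10.2 and 16.6 in pachytene. The libraries of spermatogonia and leptotene overlapped, and the difference was -0.53 ± 0.42 (adjusted p = 0.481). The total RNA change minus the nascent RNA change was 2.58 ± 0.68, the largest in size among the 38 members, with adjusted p = 0.999 in limma over the 15914 rows tested in both assays. Of all rows 0% were called in that test of leptotene against spermatogonia and 0.0251% in that of pachytene against leptotene, and 0 members were called in either. Before adjustment 3 members were under 0.05 in the former, Ptbp1, Hnrnpa1 and Hnrnpl, and 0 in the latter. The share of all rows at that level is not given here, so no result about the members is read from it. Ptbp1 shares exonic sequence on the opposite strand with Plppr3, E130317F20Rik and Gm17134, and 18.3% of its 50-base stretches occur in other genes. How the authors' counting used strand is not given in the sources used here, so reads of these genes cannot be parted from its own.

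Ptbp2 (mm10 chromosome 3, 119718742 to 119784466), the paralogue of neurons and spermatocytes, was highest in pachytene. In total RNA Ptbp2 was at 7.54, 7.06 and 12.2 FPKM in spermatogonia, 10.9 in preleptotene, 12.2, 22.7, 12.4 and 5.41 in leptotene and 24.4, 28.6, 22.4 and 31.3 in pachytene. Pachytene libraries did not overlap spermatogonia, and leptotene library 2 alone reached their range. The rise from spermatogonia was 1.39 ± 0.51 (adjusted p = 0.0471), and from leptotene it was 1.26 ± 0.47 (adjusted p = 0.0604), or 1.40 without leptotene library 2 (adjusted p = 0.0208). Nascent Ptbp2 differed by 0.25 ± 0.48 between pachytene and spermatogonia (adjusted p = 0.711). No 50-base stretch of Ptbp2 occurs in another gene of the annotation.

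Ptbp3 (mm10 chromosome 4, 59471868 to 59549364), first described in blood cells, fell in both assays. Its total RNA was 19.6, 23.4 and 17.7 FPKM in spermatogonia, 20.8 in preleptotene, 19.0, 8.15, 14.9 and 19.3 in leptotene and 8.46, 6.46, 7.25 and 8.47 in pachytene. Its nascent RNA was 22.3, 27.4 and 27.2 FPKM in spermatogonia, 36.5 in preleptotene, 29.7, 8.18, 19.4 and 29.3 in leptotene and 7.43, 3.68, 4.31 and 8.80 in pachytene. In both assays the pachytene libraries and leptotene library 2 were the lowest, and no pachytene library reached a spermatogonia library. From spermatogonia to pachytene the fall was -1.25 ± 0.35 in total RNA (adjusted p = 0.0164) and -2.0 ± 0.46 in nascent RNA (adjusted p = 0.00466). From leptotene to pachytene it was -0.92 ± 0.32 (adjusted p = 0.0489) and -1.70 ± 0.42 (adjusted p = 0.0109), or -1.11 (adjusted p = 0.00513) and -1.99 (adjusted p = 0.00278) without leptotene library 2. With the block none of these passed the threshold, the total RNA fall from spermatogonia being -1.23 (adjusted p = 0.295).

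**Figure D2:**
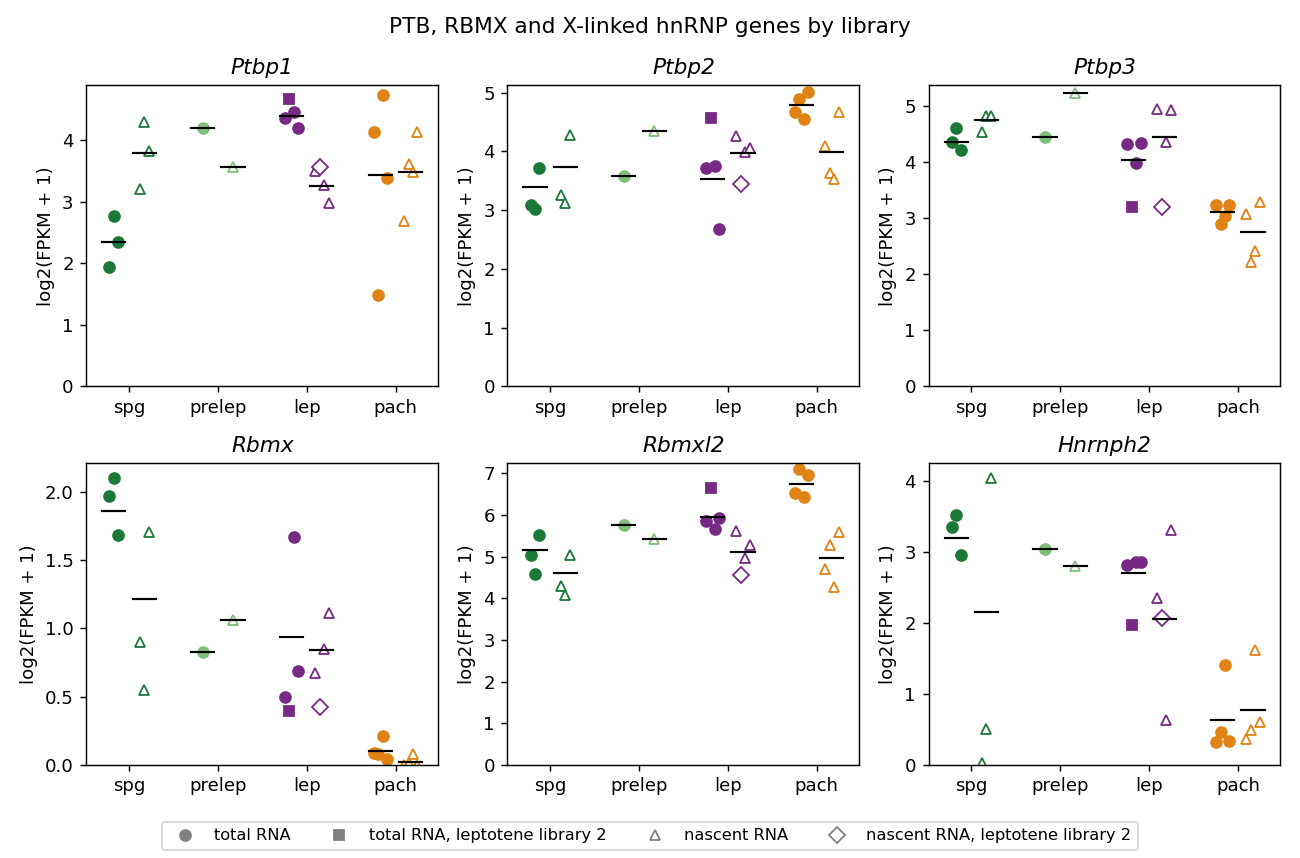
Level in log2(FPKM + 1) of the PTB genes, Rbmx, Rbmxl2 and Hnrnph2 in every library by stage (spg spermatogonia, prelep preleptotene, lep leptotene, pach pachytene). Filled symbols are total RNA, open symbols nascent RNA, squares and diamonds leptotene library 2, and lines the mean of the animals. Total Ptbp1 is at 2.85 to 5.79 FPKM in spermatogonia and 17.5 to 24.5 in leptotene, while Rbmx and Hnrnph2 are lowest in pachytene.

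Among the 11 SR proteins 4 rose in total RNA from spermatogonia to pachytene and 0 fell, while 23.1% of all rows rose and 29.7% fell. They were Srsf5, Srsf9, Srsf11 and Srsf12. Srsf12 (mm10 chromosome 4, 33208991 to 33233340), a relative of Srsf10 that can counteract other SR proteins in splice site choice, reached 1 FPKM in total RNA only in pachytene and in leptotene library 2. In total RNA Srsf12 was at 0.348, 0.433 and 0.4 FPKM in spermatogonia, 0.248 in preleptotene, 0.207, 1.5, 0.304 and 0.196 in leptotene and 1.57, 2.65, 2.02 and 2.62 in pachytene. Only leptotene library 2 stood near the pachytene libraries, and without it no leptotene library passed 0.304. The rise from leptotene to pachytene was 1.19 ± 0.25 (adjusted p = 0.00684), 1.37 without that library (adjusted p = 0.000457) and 1.48 with the block (adjusted p = 0.0457). Nascent Srsf12 was 0.328, 0.424 and 0.316 FPKM in spermatogonia, 0.0875, 0.774, 0.104 and 0 in leptotene and 1.45, 1.83, 0.124 and 2.71 in pachytene. Pachytene library 3 was low among these, and the nascent rise from leptotene was 1.01 ± 0.29 (adjusted p = 0.0237), or 1.13 without leptotene library 2 (adjusted p = 0.0116). No 50-base stretch of Srsf12 is shared with another gene, but its level was low throughout. In nascent RNA only pachytene libraries reached 1 FPKM. Srsf12 thus passed the level filter through the libraries where it was high, and its tests are not independent of that filter.

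Srsf11, an SR-type protein that associates with U2AF, rose most of all members from spermatogonia to pachytene, by 1.80 ± 0.48 (adjusted p = 0.0121). Total Srsf11 was 4.45, 13.1 and 4.49 FPKM in spermatogonia, 19.0, 17.2, 13.5 and 6.83 in leptotene and 25.5, 20.9, 18.0 and 29.8 in pachytene. The 2 libraries of 1 spermatogonia animal (4.45 and 13.1) differed by more than many stages did. Srsf5, an enhancer-binding SR protein, was at 5.75, 5.97 and 5.19 FPKM in spermatogonia and at 19.1, 17.6, 18.0 and 18.2 in pachytene, with 8.58, 4.52, 23.0 and 13.4 between them in leptotene. Its rise was 1.56 ± 0.52 (adjusted p = 0.0326), while its nascent RNA went the other way without passing the test, at -0.90 ± 0.46 (adjusted p = 0.139). Srsf9 was 6.12, 1.41 and 2.96 FPKM in spermatogonia and 8.68, 8.12, 20.5 and 6.45 in pachytene (1.43 ± 0.45, adjusted p = 0.0256). With the replicate block none of the 4 SR genes passed the threshold in this comparison.

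Of the other SR genes none was called in total RNA between these stages. Srsf1, which binds purine-rich enhancers, was the steadiest, at 60.0, 60.1 and 77.3 FPKM in spermatogonia, 69.7 in preleptotene, 67.0, 51.4, 76.6 and 68.6 in leptotene and 65.4, 79.1, 48.3 and 81 in pachytene. Its difference between pachytene and spermatogonia was -0.02 ± 0.36 (adjusted p = 0.964). Nascent Srsf1 was 52.6, 68.9 and 99.8 FPKM in spermatogonia and 3.56, 41.1, 27.7 and 75.8 in pachytene (-1.62 ± 0.69, adjusted p = 0.0823), with pachytene library 1 far below the others. Srsf2, an SR protein of nuclear speckles and the member with the highest median total RNA in leptotene, was 99.2, 91.9 and 106 FPKM in spermatogonia, 138 in preleptotene, 134, 60.7, 128 and 131 in leptotene and 60.7, 74.0, 55.5 and 76.5 in pachytene. Leptotene library 2 was alone in its stage at the pachytene level, and the difference from leptotene to pachytene was -0.79 ± 0.33 (adjusted p = 0.0861), or -0.98 without that library (adjusted p = 0.00619). Nascent Srsf2 fell from leptotene (99.9, 41.3, 96.4 and 104 FPKM) to pachytene (28.9, 31.2, 23.7 and 57.5 FPKM), by -1.35 ± 0.46 (adjusted p = 0.0447), or -1.56 without leptotene library 2 (adjusted p = 0.0141). Srsf2 overlaps Mettl23 and Mfsd11 on the opposite strand.

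Srsf3, the smallest SR protein and an adaptor of mRNA export, peaked early in some libraries: its total RNA was 6.04, 7.04 and 6.61 FPKM in spermatogonia, 25.8 in preleptotene, 24.7, 6.41, 10.4 and 29.8 in leptotene and 19.6, 7.76, 5.37 and 7.35 in pachytene. Leptotene libraries fell into high and low values, and the difference from spermatogonia was 1.16 ± 0.45 (adjusted p = 0.171), or 1.46 without leptotene library 2 (adjusted p = 0.0714). Srsf10, which represses splicing when dephosphorylated, was 9.65, 10.7 and 10.3 FPKM in spermatogonia, 11.3, 5.58, 11.4 and 11.4 in leptotene and 6.94, 6.49, 5.33 and 22.3 in pachytene. Its change from spermatogonia to pachytene was -0.22 ± 0.40 (adjusted p = 0.676). Srsf4, Srsf6 and Srsf7 differed between these stages by 0.17 ± 0.32, 0.36 ± 0.61 and 0.13 ± 0.38, none past the threshold.

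**Figure D3:**
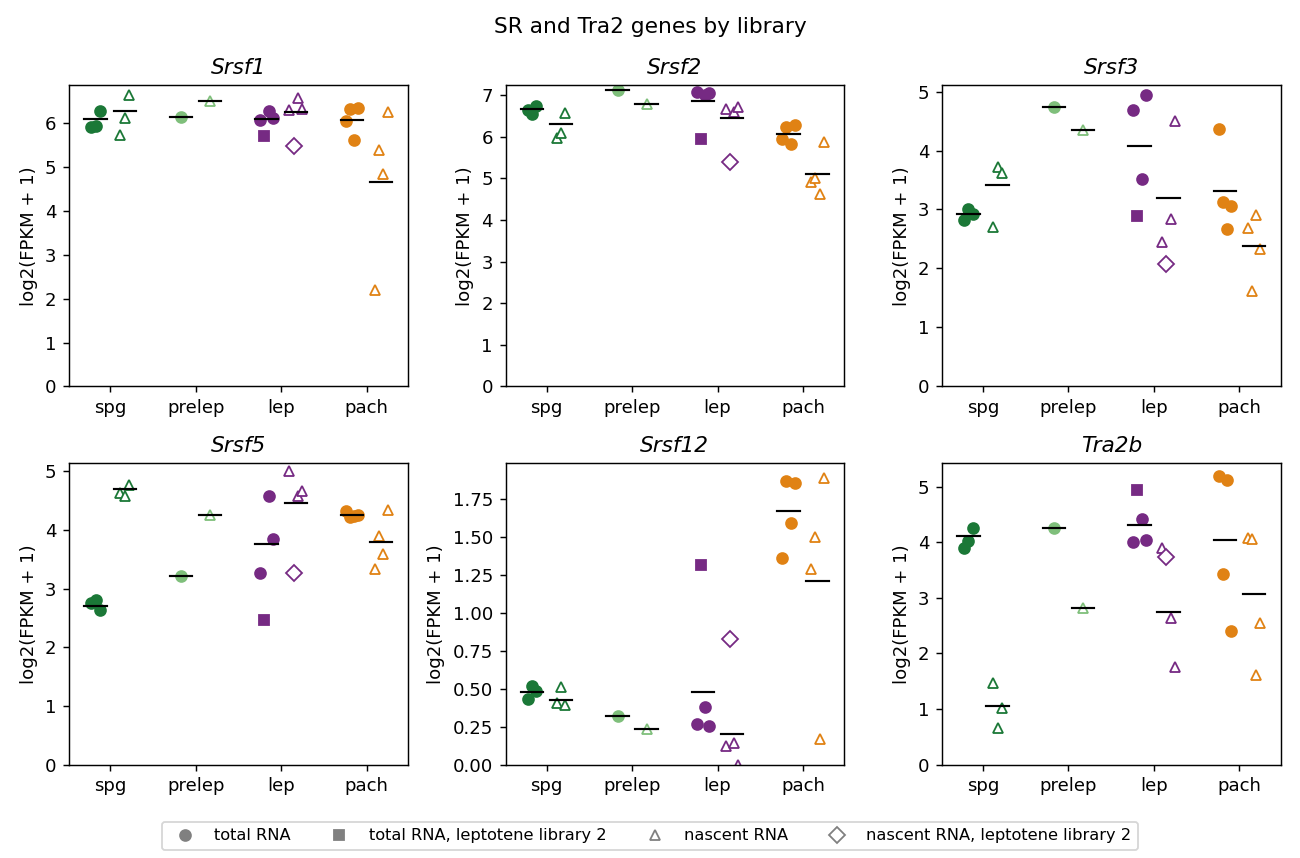
Level in log2(FPKM + 1) of 5 SR genes and Tra2b in every library by stage, with symbols as in the plot of the PTB genes (filled total RNA, open nascent RNA, squares and diamonds leptotene library 2, lines the mean of the animals). Srsf12 is highest in pachytene and in leptotene library 2, and nascent Tra2b is lowest in spermatogonia, at 0.580 to 1.79 FPKM.

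The proteins of the Tra2 genes activate exons through GAA-rich enhancers. Tra2a total RNA was 7.14, 12.5 and 11.5 FPKM in spermatogonia, 18.3 in preleptotene, 22.0, 27.1, 11.6 and 22.5 in leptotene and 29.7, 32.7, 21.2 and 25.6 in pachytene, a rise of 1.29 ± 0.42 from spermatogonia to pachytene (adjusted p = 0.0303). Its nascent RNA was 10.6, 12.1 and 10.9 FPKM in spermatogonia and between 18.2 and 52.6 in all later libraries, although the difference of 1.41 ± 0.54 to pachytene missed the threshold (adjusted p = 0.0535). Tra2b total RNA had no order, at 13.8, 15.2 and 18.1 FPKM in spermatogonia and 35.6, 9.76, 33.5 and 4.31 in pachytene (-0.07 ± 0.64, adjusted p = 0.935). The pachytene values came in pairs by animal, 35.6 and 33.5 in 1 and 9.76 and 4.31 in the other. Nascent Tra2b was 1.79, 0.580 and 1.04 FPKM in spermatogonia, 6.03 in preleptotene, 13.9, 12.2, 5.25 and 2.38 in leptotene and 16.0, 15.6, 2.04 and 4.81 in pachytene. As deposited, no later library reached down to the spermatogonia, and the rise to pachytene was 2.02 ± 0.60 (adjusted p = 0.0176). It was not called with the replicate block. With spike-in rows taken out of the library sum, leptotene library 4 was at 1.87, below spermatogonia library 1 at 1.95.

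Of the 20 hnRNPs 4 rose and 2 fell in total RNA from spermatogonia to pachytene, against 23.1% and 29.7% of all rows. Hnrnpll and Hnrnpl, paralogues that bind CA repeats and CA-rich silencers, rose together. Hnrnpll was 2.29, 2.64 and 3.30 FPKM in spermatogonia, 3.03 in preleptotene, 5.85, 9.28, 3.66 and 3.30 in leptotene and 13.9, 8.94, 9.47 and 11.0 in pachytene, a rise of 1.60 ± 0.40 from spermatogonia (adjusted p = 0.00972) and of 1.08 ± 0.37 from leptotene (adjusted p = 0.0443, or 1.18 and 0.00921 without leptotene library 2). Hnrnpl was 5.57, 9.2 and 8.72 FPKM in spermatogonia, 9.92, 27.0, 14.0 and 10.9 in leptotene and 14.5, 32.3, 21.4 and 17.1 in pachytene (1.26 ± 0.36, adjusted p = 0.0170). Leptotene library 2 had the highest leptotene value of both genes. Their nascent RNA differed from spermatogonia to pachytene by 0.04 ± 0.49 and 0.49 ± 0.44, neither past the threshold. With spike-in rows taken out of the library sum, nascent Hnrnpl was 7.18 to 8.88 FPKM in spermatogonia and 11.1 to 18.3 in pachytene. Nascent Hnrnpll still overlapped, at 2.87 to 3.93 and 2.92 to 6.80.

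Hnrnpm, a regulator of splicing enhancers and silencers, was 13.6, 5.31 and 6.22 FPKM in spermatogonia and 21.9, 25.8, 19.1 and 21.9 in pachytene (1.47 ± 0.54, adjusted p = 0.0470). In this comparison it was the only member called higher in total RNA with the block (3.06, adjusted p = 0.0181). Hnrnpf, which binds guanine runs, was 64.8 to 68.6 FPKM in spermatogonia and 130 to 142 in pachytene (1.01 ± 0.34, adjusted p = 0.0353). Of its 50-base stretches 61.9% occur in other genes, Gm6430, Gm47882 and Gm7446 foremost, so its level is uncertain. Hnrnpu, a scaffold protein of the nuclear matrix, and the AU-rich element binder Hnrnpa0 rose between leptotene and pachytene. Hnrnpu was 20.9, 41.7, 23.2 and 18.9 FPKM in leptotene and 49.4, 40.5, 44.5 and 56.1 in pachytene (0.98 ± 0.32, adjusted p = 0.0408). Hnrnpa0 was 40.4, 91.0, 37.6 and 39.5 in leptotene and 101, 128, 98.2 and 122 in pachytene (1.29 ± 0.36, adjusted p = 0.0209). In both genes leptotene library 2 was nearest to pachytene, and both changes were larger without it, at 1.14 (adjusted p = 0.00295) and 1.49 (adjusted p = 0.00165).

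Hnrnpdl, related to the mRNA decay factor Hnrnpd, fell. Total Hnrnpdl was 10.7, 20.3 and 9.08 FPKM in spermatogonia, 16.7 in preleptotene, 21.1, 8.18, 19.3 and 7.67 in leptotene and 3.73, 3.92, 6.59 and 3.18 in pachytene, lower in every pachytene library than in any other. The fall from leptotene was -1.38 ± 0.43 (adjusted p = 0.0313), or -1.59 without leptotene library 2 (adjusted p = 0.0205), and that from spermatogonia -1.28 ± 0.47 (adjusted p = 0.0461). Its nascent RNA fell too, by -1.53 ± 0.53 from spermatogonia (adjusted p = 0.0376). Hnrnpc, which covers uridine tracts of nascent transcripts, fell in nascent RNA, from 22.0, 24.0 and 37.4 FPKM in spermatogonia to 8.36, 12.3, 6.25 and 17.2 in pachytene (-1.42 ± 0.52, adjusted p = 0.0457). Its total RNA, 30.5 to 36.9 FPKM in spermatogonia and 9.29 to 31.3 in pachytene, differed by -0.61 ± 0.36 (adjusted p = 0.178).

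Hnrnpa1, the archetypal silencer-binding hnRNP, was the least repeatable member. Total Hnrnpa1 was 0.755 and 42.2 FPKM in the 2 libraries of 1 spermatogonia animal and 23.6 in the other animal, 25.7 in preleptotene, 25.6, 2.71, 22.7 and 3.07 in leptotene and 0.152, 4.27, 5.57 and 4.79 in pachytene. Total RNA differences did not pass the threshold (-1.91 ± 0.81 from spermatogonia to pachytene, adjusted p = 0.0758), but with the block that fall was -3.31 (adjusted p = 0.00858). Nascent Hnrnpa1 was 0.0507, 10.1 and 3.06 FPKM in spermatogonia, 8.71, 8.25, 20.3 and 7.61 in leptotene and 3.47, 2.65, 2.82 and 4.75 in pachytene, and it was called higher in leptotene than in spermatogonia (1.69 ± 0.46, adjusted p = 0.0390) and lower in pachytene than in leptotene (-1.47 ± 0.46, adjusted p = 0.0339). Without leptotene library 2 both were called (1.70, adjusted p = 0.0425, and -1.48, adjusted p = 0.0287). With the block neither passed (1.28, adjusted p = 0.17, and -2.22, adjusted p = 0.0758). Of the gene's 50-base stretches 28.2% occur in other genes, Gm10052, Gm7729 and Gm5643 foremost, so its level is uncertain. Hnrnpa2b1 and Hnrnpk, abundant relatives with roles in RNA transport and poly-C binding, differed by -0.04 ± 0.35 and 0.35 ± 0.49 between spermatogonia and pachytene total RNA, and Hnrnph1 by 0.24 ± 0.36, none past the threshold. The other hnRNPs, Hnrnpa3, Hnrnpab, Hnrnpd, Hnrnph3, Hnrnpr, Hnrnpul1 and Hnrnpul2, lay between -0.86 ± 0.34 (Hnrnpab) and 0.88 ± 0.39 (Hnrnpul1) and were not called. Without leptotene library 2 Hnrnpab was called lower and Hnrnph3, Hnrnpul1, Hnrnpu and Hnrnpa0 higher in this comparison, while Hnrnpdl was no longer called (-1.28, adjusted p = 0.0595).

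The summed share of the 38 genes was highest in pachytene total RNA, which was not tested. They held 0.215 ± 0.0056% of the FPKM outside spike-ins in spermatogonia (SD over 2 animals), 0.245% in the preleptotene library, 0.227 ± 0.027% in leptotene (3 animals) and 0.343 ± 0.020% in pachytene (2 animals). By library the range was 0.211 to 0.227% in spermatogonia, 0.198 to 0.298% in leptotene and 0.297 to 0.377% in pachytene, so leptotene and pachytene met at leptotene library 2. A few abundant genes weigh most in this sum: between spermatogonia and pachytene the mean of the animals went from 36.2 to 109 FPKM for Rbmxl2, from 66.3 to 135 for Hnrnpf, from 58.3 to 112 for Hnrnpa0 and from 24.7 to 47.6 for Hnrnpu, but from 101 to 66.7 for Srsf2. The FPKM of all rows summed to 324227 to 359118 in spermatogonia and 273338 to 303334 in pachytene libraries, and its part in the share was not tested. In nascent RNA the share was 0.237 ± 0.018%, 0.239 ± 0.027% and 0.223 ± 0.038% in spermatogonia, leptotene and pachytene, which differed by less than the spread between animals. With 2 animals in a group no exact test can reach p under 0.05, and none was made.

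In nascent RNA the calls were as follows. From spermatogonia to pachytene Tra2b rose and Hnrnpc, Rbmx, Ptbp3 and Hnrnpdl fell, 5 of 38 (13.2%, against 43.5% of 16375 rows). From leptotene to pachytene Srsf12 rose and Hnrnpa1, Srsf2, Ptbp3 and Hnrnpr fell, 5 of 38 (against 31.2%), and from spermatogonia to leptotene Hnrnpa1 rose, 1 of 38 (against 10.6%). Rows called higher and lower were 15.6% and 27.9%, 15.8% and 15.4%, and 0.696% and 9.9% in these comparisons. Hnrnpr, which binds spliced and small nuclear RNAs, was 5.44, 0.509, 2.61 and 3.56 FPKM in leptotene and 0.688, 0.598, 0.923 and 0.974 in pachytene (-1.05 ± 0.36, adjusted p = 0.0471), or -1.40 without leptotene library 2 (adjusted p = 0.0141). Without leptotene library 2 the calls were 7, 9 and 2 (against 44.8%, 39.7% and 11.1% of rows). Leaving out any 1 animal lowered the calls of pachytene against spermatogonia, both among the members and over all rows. With the animal as a replicate block 1 member was called in each comparison, Srsf12 higher in both pachytene comparisons (1.36, adjusted p = 0.0335, and 1.55, adjusted p = 0.00339) and Tra2b higher in leptotene (1.74, adjusted p = 0.0326), against 31.7%, 19.7% and 20% of rows.

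Spike-ins took 5.01 to 76.5% of the FPKM of nascent libraries, and 2.49 to 8.19% in total RNA. When each library was scaled to the same sum without them, a choice made after these shares were seen, 8 members were called in nascent pachytene against spermatogonia and 8 against leptotene (against 46.8% and 35.1% of rows), and 1 in leptotene against spermatogonia (against 10.4%). In total RNA the counts were 17, 10 and 0 (against 54.6%, 42.5% and 11.2%). In the last 2 members were under an unadjusted limma p of 0.05, again without a share of all rows beside it. Tra2a then rose from spermatogonia (1.72, adjusted p = 0.0130), as did Srsf11 (1.63, adjusted p = 0.0248), while Rbmx no longer passed the level filter in nascent RNA.

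**Figure D4:**
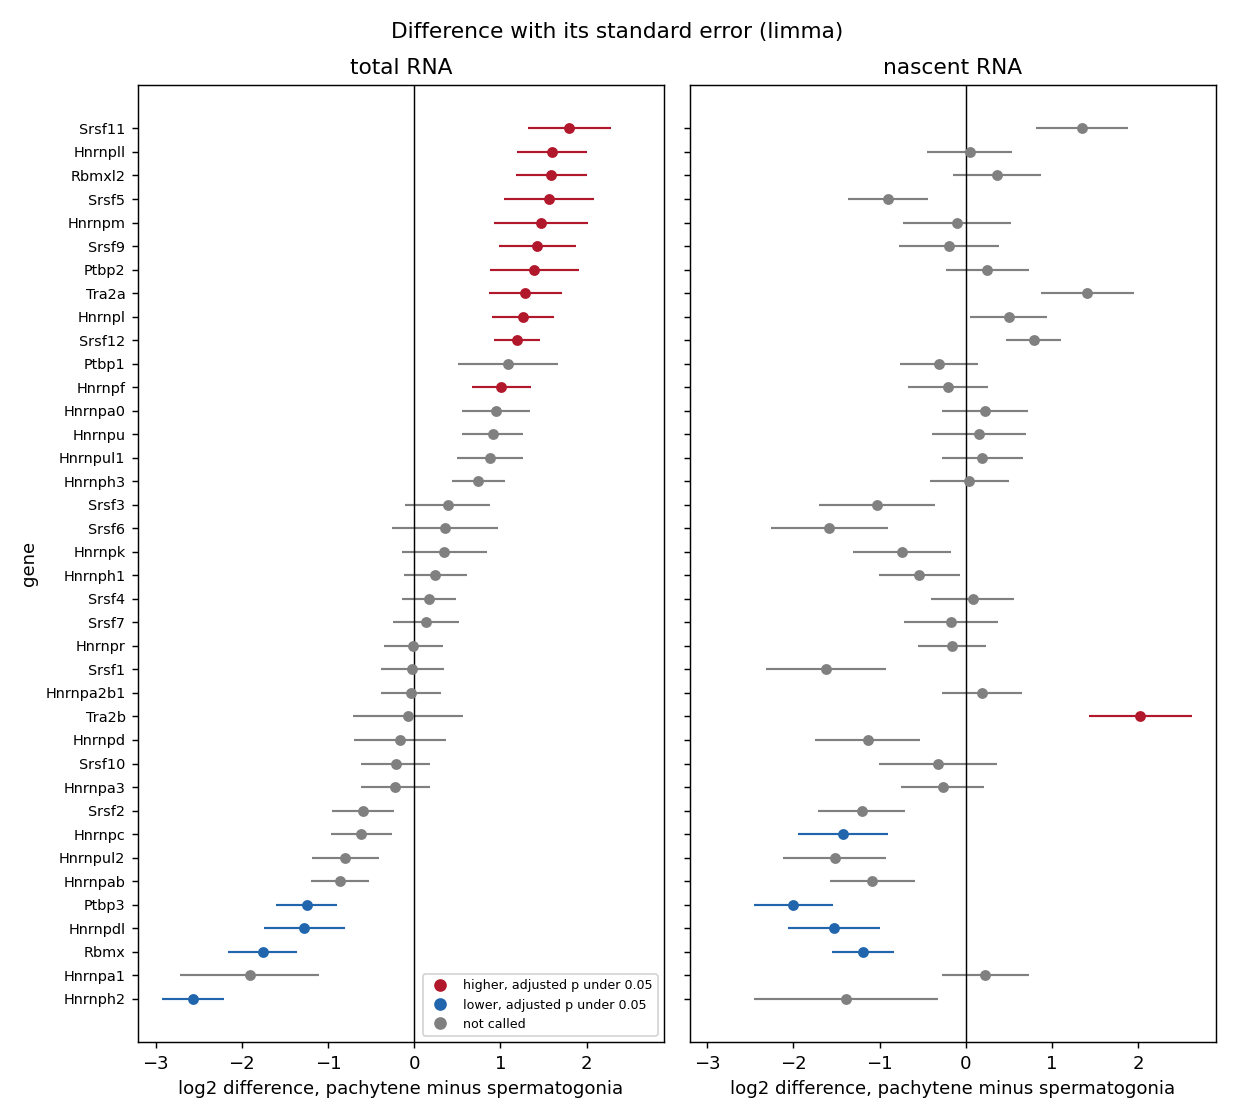
Difference of pachytene and spermatogonia in log2(FPKM + 1) for each of the 38 genes, with 1 standard error as the bar, in total RNA (left, 11 higher and 4 lower) and nascent RNA (right, 1 higher and 4 lower). Red and blue mark genes with an adjusted p under 0.05. Ptbp3, Hnrnpdl and Rbmx are lower in both assays.

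Values of 2 libraries from the same animal set how far single values can be read. In total RNA 5 of 38 members differed by more than 1 on the log2 scale between such libraries in spermatogonia and in each pachytene animal (13.2%), and 9 in the leptotene animal that gave library 2 (23.7%). Among the 7519 rows whose mean log2(FPKM + 1) was at least 2 the same held for 9.79% in spermatogonia, 13.8% and 9.99% in the pachytene animals and 51.8% in that leptotene animal. In nascent RNA 10 members differed so much in spermatogonia (26.3%, against 5.42% of 5370 rows) and 13 in leptotene (34.2%, against 45.7%). In the pachytene animals these were 10 (26.3%, against 19.5%) and 11 (28.9%, against 24.1%). The widest gaps were those of Hnrnpa1 in spermatogonia, 4.62 in total and 3.40 in nascent RNA.

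The table that the authors corrected to 5S RNA holds 9 of the nascent libraries, without leptotene libraries 2 and 3 and pachytene library 3, and its library-wide constants shift all genes together. There the median difference of the 38 was -1.52 from spermatogonia to leptotene and 1.83 from leptotene to pachytene, beside -1.09 and 0.87 over all rows. In the former 2 members fell, Hnrnpa3 (-2.97, adjusted p = 0.0102) and Hnrnpl (-2.39, adjusted p = 0.0413), while 27.4% of all 18561 rows were called. In the latter 9 rose, 23.7% of members against 32.6% of rows, the largest being Hnrnpl (3.60, adjusted p = 0.00189) and Hnrnpa0 (3.59, adjusted p = 0.00979). From spermatogonia to pachytene Tra2b (3.31, adjusted p = 0.00213) and Srsf12 (1.69, adjusted p = 0.0142) rose and Rbmx fell (-1.61, adjusted p = 0.0059), 3 members against 40.6% of rows. Nascent Ptbp1 in this table was 12.5 to 50.9 in spermatogonia (corrected signal), 5.06 in preleptotene, 3.05 and 6.03 in leptotene and 9.53 to 57.2 in pachytene. Both leptotene libraries were thus below every spermatogonia and pachytene library. The same held for their summed signal over all rows, 155421 and 159121, against at least 325451 in spermatogonia and 420943 in pachytene. The order of Ptbp1 is therefore not a result particular to it.

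Other splicing genes were taken from lists of the machinery around these families, and their counts stand against 23.1% of all rows that rose and 29.7% that fell. Of the enzymes and carriers of SR proteins, 2 of 16 rose and 4 fell in total RNA from spermatogonia to pachytene. The SR kinase Srpk1 rose (1.90 ± 0.37, adjusted p = 0.00296), and the phosphatase subunits Ppp1ca (-4.68 ± 0.51, adjusted p = 0.000866) and Ppp1cb (-2.13 ± 0.64, adjusted p = 0.0214) fell. Of the core snRNP and branch-site subunits 4 of 35 rose and 0 fell, led by Sf3a2 (2.18 ± 0.39, adjusted p = 0.00218). Of the SR-related proteins 1 of 21 rose and 2 fell, Scaf11 by -2.90 ± 0.40 (adjusted p = 0.00112). Of the hnRNP relatives under other symbols 6 of 20 rose and 5 fell, among them the poly-C binding protein gene Pcbp3 (2.74 ± 0.71, adjusted p = 0.0108) and Msi2 (-2.71 ± 0.39, adjusted p = 0.00123). Of the other alternative splicing regulators 5 of 33 rose and 15 fell, with Mbnl2 (-3.73 ± 0.45, adjusted p = 0.00093), the X-linked Nono (-3.60 ± 0.48, adjusted p = 0.00107) and Elavl2 (-3.24 ± 0.62, adjusted p = 0.00281) lowest. The median log2 differences of these 5 lists were 0.21, 0.33, 0.04, 0.25 and -0.86, beside 0.30 for the SR, hnRNP and PTB genes. With leptotene library 2 included, Mbnl2 was also called lower in leptotene than in spermatogonia, in total RNA (-2.30 ± 0.41, adjusted p = 0.00921) and in nascent RNA (-3.0 ± 0.48, adjusted p = 0.0019). Its differences without that library, which resembled pachytene, are not given here, so the part of that library in these falls is not known.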

How the data were processed

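Sorted testis cells gave 12 libraries of total RNA and 12 of nascent RNA, with ERCC spike-ins put in after RNA extraction, per the labels' protocols. The deposited values are FPKM per gene, for which the submitters' processing notes name STAR 2.5.2a, StringTie and the mm10 build. Another deposited table gives a signal corrected to 5S RNA, which equals the authors' nascent FPKM times a constant per library. How isoforms were summed, whether strand was used and the annotation are not given in the sources used here. FPKM tables give no read totals. From the steps between low values, a 2 kb transcript at 1 FPKM corresponds to about 14.1 to 31.6 reads in total and 10.2 to 20.2 in nascent libraries. This is rough, since 46.9 to 57.0% of low values lay within 0.05 of a whole read.

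Members and gene lists were chosen with earlier results of these data known. Values were averaged per animal and stage as log2(FPKM + 1), and rows that reached 1 FPKM in 2 or more libraries were fitted with limma 3.58.1 in R 4.3.3 (eBayes with trend), without the 92 spike-in rows, with Benjamini-Hochberg adjustment and a threshold of 0.05. The fit was tested on simulated data. Python 3.11.15 served for the rest (pandas 2.3.3, numpy 2.4.6, matplotlib 3.10.9, scipy 1.17.1). Coordinates and shared 50-base stretches came from GENCODE M21, promoters from RefSeq (GRCm38.p6).

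Every member is accounted for, with full values for a list of genes and for the 4 largest called rises and falls of each comparison. From each other list up to 3 called genes with the largest change were named.

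The labels give the animal of each library, and it differs from the replicate number in the titles. Animals pair 3 stage pairs per assay. Their deviations from the stage means correlated by 0.08, 0.02 and 0.08 in total RNA and by -0.16, -0.12 and 0.05 in nascent RNA. The alternatives were other pseudocounts, filters and scalings, the animal as a fixed or random block, and leaving out libraries or animals.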

Additional observations from a re-analysis of the deposited data

Results flagged for a closer look

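Within groups of 4 libraries, 15 of the 152 gene and stage groups had 1 library far from the other 3 by Dixon's gap test. By chance this marks about 1 group in 20 when the 4 values are independent. Here some libraries share an animal and the genes share libraries, so that rate is no measure for these groups. The share over all genes is not given here.

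Leptotene library 2 was that library for 5 genes in total RNA. Hnrnpa0 was 91.0 FPKM there against 37.6 to 40.4 in the others. Hnrnph2 was 2.92 against 6.04 to 6.27, and Srsf10 was 5.58 against 11.3 to 11.4. Srsf12 was 1.5 against 0.196 to 0.304, and Srsf2 was 60.7 against 128 to 134. Nascent Srsf2 in leptotene library 2 was 41.3 against 96.4 to 104.

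In pachytene total RNA, library 1 stood apart for Hnrnpa1 (0.152 against 4.27 to 5.57 FPKM) and Hnrnph1 (11.3 against 9.05 to 9.35). Library 3 did so for Hnrnph2 (1.64 against 0.245 to 0.379), and library 2 for Hnrnpr (0.789 against 3.91 to 4.46).

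In nascent RNA, leptotene library 3 had 20.3 FPKM of Hnrnpa1 against 7.61 to 8.71, and leptotene library 4 had 38.5 of Hnrnpab against 20.0 to 21.3. Pachytene library 4 had 24.2 of Hnrnpk against 10.2 to 11.1 and 31.7 of Hnrnpul1 against 16.7 to 18.5. Pachytene library 3 had 0.0568 of Rbmx against 0 to 0.00891, all under the level of 3 reads.

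The nascent libraries differ in spike-in share, which was 5.01% in leptotene library 4 and 13.1% in pachytene library 4 against 64.9 to 76.5% in the other pachytene libraries. With spike-in rows taken out of the library sum, Hnrnpab in leptotene was 30.3 in library 4 against 17.4 to 25.7, Hnrnpk in pachytene was 18.8 in library 4 against 12.1 to 16.1, and Hnrnpul1 was 24.6 there, within the 19.8 to 27.6 of the others. Hnrnpa1 in leptotene library 3 was 17.7 against 5.98 to 10.5, and Srsf2 in leptotene library 2 was 52.6 against 82.1 to 107.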

How the results depend on the processing

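Counts of members called moved by over 1.5 times in many alternatives, and the cause was not tested. The calls over all rows moved too, also when an animal was left out, and whether those of the members moved more was not tested. With spike-in scaling 0 of 21415 nascent rows were called in each comparison. In leptotene against spermatogonia total RNA 1441 of 18727 rows rose and 3501 fell with the 9 libraries. In the main fit these were 55 and 1828 of 19202. In leptotene against spermatogonia total RNA (1 call) 0 members were called with a pseudocount of 0.1 and without a filter. Of all rows 50 rose and 1347 fell of 19202 in the former, and 42 and 2570 of 37118 in the latter. There were also 0 with spike-in rows taken out of the library sum and without leptotene library 2. With the 9 libraries that have a 5S-corrected counterpart there were 7. In pachytene against leptotene total RNA (7) there were 16 with spike-in scaling, 14 without leptotene library 2, 15 with the 9 libraries and 1 to 12 without each animal. In pachytene against spermatogonia total RNA (15) fewer members were called without any 1 animal, and fewer of all rows.

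In nascent leptotene against spermatogonia (1) there were 0 without a filter or with spike-in scaling, and 2 without leptotene library 2. There were 4 with the 9 libraries and 2 in the 5S-corrected table. With the 9 libraries 2150 of 16015 rows rose and 3699 fell, and without a filter 39 of 33102 rose and 2130 fell. In nascent pachytene against leptotene (5) there were 8 with a pseudocount of 0.1, median-ratio scaling or spike-in rows taken out. There were 1 without a filter, 0 with spike-in scaling, 9 without leptotene library 2, 11 with the 9 libraries and 9 in the 5S-corrected table. Of all rows 2425 of 16375 rose and 3463 fell with the pseudocount, and 3633 of 15906 rose and 2313 fell with median-ratio scaling. Without a filter 2735 of 33102 rose and 1417 fell, and with the 9 libraries 3569 of 16015 rose and 4777 fell. In nascent pachytene against spermatogonia (5) there were 1 without a filter, 0 with spike-in scaling and 8 with spike-in rows taken out. There were 10 with the 9 libraries and 3 in the 5S-corrected table, and fewer than 5 without any 1 animal. Without a filter 2962 of 33102 rows rose and 5109 fell, and with the 9 libraries 3323 of 16015 rose and 5452 fell. Taking spike-in rows out was chosen after seeing the data. In the 5S-corrected table Hnrnpa1 (0.90), Ptbp3 (0.077) and Srsf2 (0.71) changed sign in pachytene against leptotene, where the median of all rows was 0.87 and fewer libraries entered.

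Pairing by animal: with the fixed replicate block 2, 6 and 4 members were called in total RNA and 1, 1 and 1 in nascent RNA. With a random replicate block these were 2, 10 and 21, and 2, 5 and 9. The order is leptotene against spermatogonia, pachytene against leptotene and pachytene against spermatogonia. With the random block 345, 4556 and 5054 of 19202 total RNA rows rose and 3052, 4318 and 6491 fell. In nascent RNA 433, 2842 and 2967 of 16375 rows rose and 2438, 3706 and 5295 fell. The tests of total minus nascent RNA called 0 members in every alternative run. Hnrnph2 kept its fall in total RNA in 14 of 14 alternatives against leptotene and 13 of 13 against spermatogonia, and Rbmx against spermatogonia in 13 of 13. Ptbp1's rise into leptotene was called in 4 of 14 alternatives, with adjusted p of 0.0174 to 0.406 and values of 1.74 to 2.27.

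Where an animal left out leaves 1 animal in a stage, that animal is assumed to vary like the others. With 2 or 3 animals per stage, a member that was not called is not shown to be level. Total Rbmx in pachytene was under the level of 3 reads except in library 3.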
